A study of Homo sapiens with 15 samples.

Results

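AP-1 is the group of dimeric transcription factors built from Jun, Fos, ATF and Maf proteins. The genes described here are 10 AP-1 genes, FOS, FOSB, FOSL1, FOSL2, JUN, JUNB, JUND, ATF3, BATF and MAFF, out of 60649 genes in the count table. They were chosen by name for their family membership, with earlier results of these data known. Related genes such as ATF2, BATF3 and JDP2 are not among them and are counted in a partner list further below. All 10 were found, and all 10 were among the 23711 genes that passed the low count filter. BATF passed it only through the 6 libraries of the 0.15 and 0.25 µM groups, and the other 9 exceeded the filter's minimum in all 15 libraries.

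Poly(A) RNA was sequenced from K-562 cells, a human chronic myelogenous leukaemia line that grows in suspension and carries erythroid features. The cells were left untreated or were exposed for 24 h to martinostat, an inhibitor of histone deacetylases (the enzymes that remove acetyl groups from histones and other proteins), at 0.15, 0.25, 0.5 or 1 µM. Each of these 5 groups had 3 libraries, which the labels number as biological replicates, so there were 15 libraries in all. Every group was the same cell line, and the dose was the only difference that the labels give. The labels do not name a vehicle for the untreated cells, and every comparison with untreated cells below shares the same 3 untreated libraries.

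AP-1 proteins bind DNA as pairs joined through a leucine zipper. Jun proteins can pair with each other, whereas Fos proteins need a Jun or another partner, and the pairs bind the sequence TGANTCA or the closely related cAMP response element TGACGTCA. Several AP-1 genes are immediate-early genes, which growth factors, stress and MAP kinase signalling switch on without new protein synthesis. ATF3 is a stress-induced member, BATF is best known from lymphocytes, and MAFF is a small Maf protein that lacks a transactivation domain.

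Levels are given as CPM, the reads of a gene per 1000000 reads of its library. Library sizes were first scaled with TMM factors (trimmed mean of M values), a method that assumes that most genes do not differ. A gene was called changed when the Benjamini-Hochberg adjusted p of edgeR's quasi-likelihood test, fitted over all 23711 genes and all 15 libraries, was under 0.05. The libraries held 23755510 to 32805574 counted reads. With this scaling the median of all genes was itself shifted, by log2 fold changes of 0.28, 0.32, 0.34 and 0.32 at the 4 doses. With plain library totals it was 0.64, 0.84, 0.72 and 0.67. The shift also depended on the genes included. Among the 14096 genes with at least 10 counts in every library, fitted on their own, the medians were 0.01, 0.03, 0.04 and 0.01. Every change is to be read against these shifts. The libraries of replicate 3 at 0.25 and 0.5 µM stood apart on principal component 3, which held 5.85% of the variance, with scores of 48.7 and 52.1 against at most 9.51 in the other libraries. Their TMM factors were 1.284 and 1.222, against 0.7847 to 1.108 elsewhere, and results that rest on them are given with and without them.

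The cell line's erythroid character was checked with 13 genes. Of these, 12 averaged 1 CPM or more in every group, the exception being the embryonic globin gene HBE1. Their summed level was 4060 to 4460 CPM in the untreated libraries, 2010 to 2230 at 0.15 µM, 1220 to 1600 at 0.25 µM, 707 to 1140 at 0.5 µM and 1040 to 1170 at 1 µM. At 1 µM 10 of the 13 were called lower, among them the erythroid transcription factor genes GATA1 (328 to 18.8 CPM) and KLF1 (406 to 3.57 CPM), and HBE1 was called higher. Of all tested genes 27.5% were called lower and 38.8% higher at that dose. A list of 15 markers of T cells, B cells, monocytes, fibroblasts, endothelium and epithelium summed to 170 to 188 CPM in untreated libraries, 371 to 468 at 0.15 µM, 366 to 451 at 0.25 µM, 410 to 519 at 0.5 µM and 361 to 556 at 1 µM. CD2, MS4A1 and CDH5 were at 0 in all untreated libraries, so any of them that was tested entered only through treated groups. A higher call of such a marker is no support for a direction. Of the 14 markers tested at 1 µM 8 were called higher and 4 lower, against 38.8% and 27.5% of all tested genes. The summed levels of both lists differed between untreated and treated libraries, without a steady order over the 4 doses. Their part in the AP-1 results below was not tested. In bulk RNA, a change in the number of cells of a type and a change in RNA per cell cannot be told apart.

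The promoters of 4 members are shown because their genes moved in different ways: FOS and JUN were called higher at every dose, FOSB and JUNB at 0.5 and 1 µM but not at the lower doses. Each line holds the 250 bases before the gene's RefSeq start on its own strand, 5′ to 3′, on GRCh38.p14, and capitals mark the matches to TGACGT, TGACATCA and TATAAA described after them.
FOS: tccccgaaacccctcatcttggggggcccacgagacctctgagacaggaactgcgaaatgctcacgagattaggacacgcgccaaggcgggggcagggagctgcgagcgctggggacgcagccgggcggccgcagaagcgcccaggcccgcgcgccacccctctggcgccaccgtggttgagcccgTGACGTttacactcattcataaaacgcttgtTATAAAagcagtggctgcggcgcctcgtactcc
FOSB: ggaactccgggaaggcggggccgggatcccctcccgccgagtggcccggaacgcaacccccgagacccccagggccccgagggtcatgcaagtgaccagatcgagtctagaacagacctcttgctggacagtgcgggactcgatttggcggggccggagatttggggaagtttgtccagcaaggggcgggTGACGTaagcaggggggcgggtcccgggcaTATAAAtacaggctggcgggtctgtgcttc
JUN: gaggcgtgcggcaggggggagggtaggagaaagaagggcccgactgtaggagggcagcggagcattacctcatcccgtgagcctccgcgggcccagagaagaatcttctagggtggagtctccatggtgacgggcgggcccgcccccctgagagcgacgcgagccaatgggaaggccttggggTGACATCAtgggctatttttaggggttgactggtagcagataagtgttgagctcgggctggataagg
JUNB: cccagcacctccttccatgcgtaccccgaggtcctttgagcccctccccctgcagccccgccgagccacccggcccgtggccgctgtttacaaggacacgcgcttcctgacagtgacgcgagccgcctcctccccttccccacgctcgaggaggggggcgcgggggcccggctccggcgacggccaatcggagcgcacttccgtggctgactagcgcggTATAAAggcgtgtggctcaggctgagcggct

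The FOS window lies at chr14:75278578-75278827 on the plus strand, the FOSB window at chr19:45467746-45467995 on the plus strand, the JUN window at chr1:58784048-58784297 on the minus strand and the JUNB window at chr19:12791236-12791485 on the plus strand. RefSeq promoter entries matched 9 of the 10 members, all but FOSL1. In these 9 windows, searched on both strands, the TATA box letters TATAAA stood in FOS (33 to 28 bases before the start), FOSB (30 to 25) and JUNB (31 to 26), and in 10.7% of 35116 promoter windows of the same length. The variant TGACATCA, a base away from the cAMP response element, stood in JUN (67 to 60 bases before the start) and ATF3 (123 to 116), and in 2.37% of all windows. The full element TGACGTCA stood in JUND (200 to 193 bases before the start) and MAFF (54 to 47), and in 1.65% of all windows. Its part TGACGT, a motif added after the sequences were seen, stood in FOS, FOSB, FOSL2, JUND and MAFF, and in 7.1% of all windows. In MAFF its matches lie within the full element, and in JUND they do except for the match 87 to 82 bases before the start. The AP-1 site TGANTCA (6.57% of all windows) and the CArG box of serum response factor (1.16%) were not found in these 9 windows. Only the first listed RefSeq start of each gene was searched, and which start these cells use was not tested. Sites further than 250 bases before the start, or after it, were not searched, so these genes may carry such sites elsewhere. GGGCGG was frequent everywhere, at 42.6% of windows. A match describes the letters only.

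**Figure D1:**
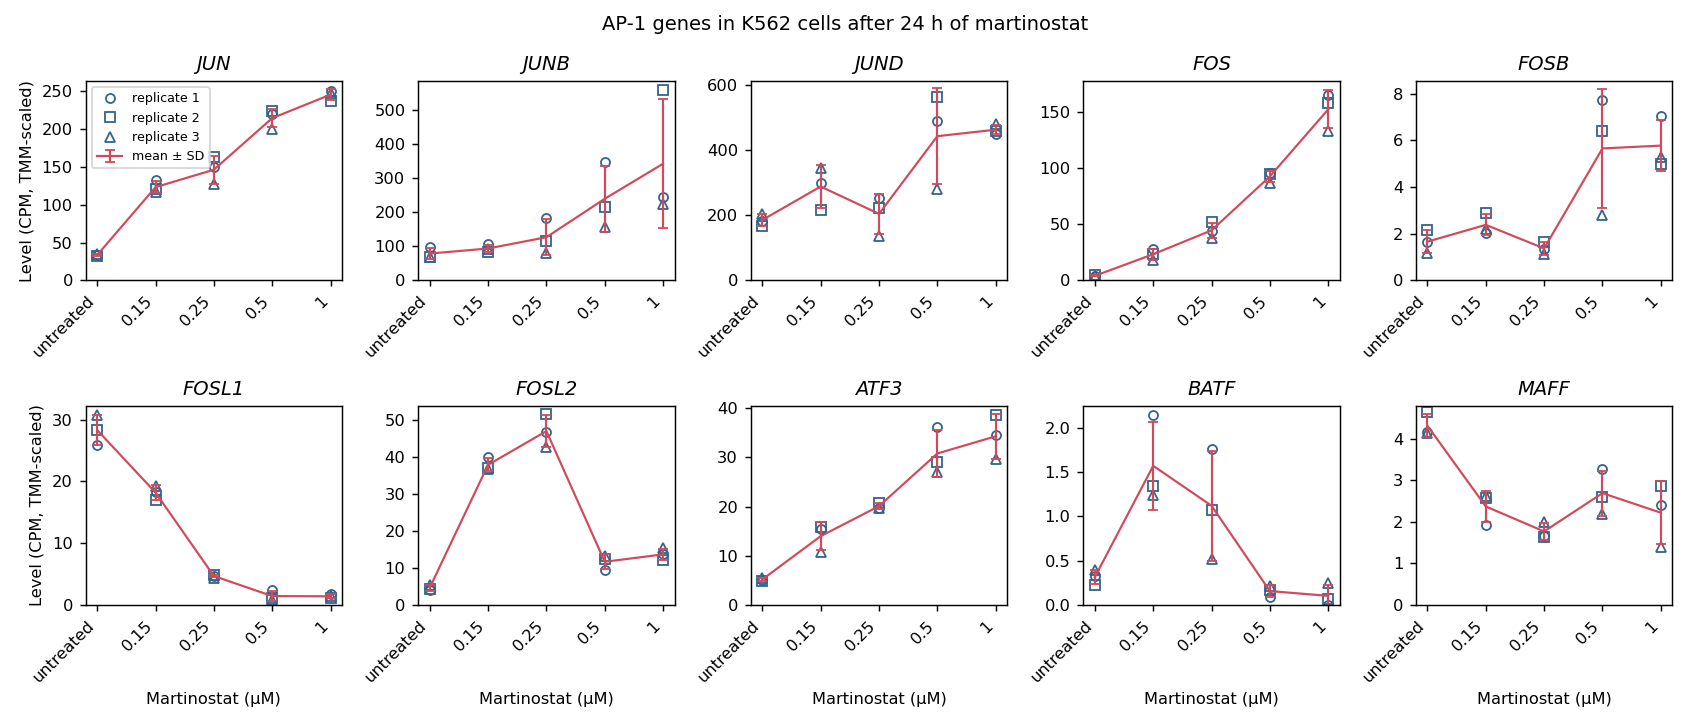
Level of each AP-1 gene (CPM, TMM-scaled, linear axes from 0) against martinostat dose in µM, with a symbol for each of the 3 replicates and the mean ± SD in red. The means of FOS, JUN, JUNB and ATF3 climb over the doses (FOS from 4.1 to 152 CPM), FOSL1 drops from 28.3 to 1.42 CPM, and FOSL2 and BATF peak at 0.15 or 0.25 µM.

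Among the Jun genes, whose products are the usual partners of Fos proteins, JUN showed the clearest dependence on dose. JUN (chr1:58776845-58784048, minus strand) stood at 33.0, 32.2 and 35.1 CPM in the untreated replicates, 132, 120 and 116 at 0.15 µM, 150, 163 and 127 at 0.25 µM, 219, 223 and 200 at 0.5 µM, and 250, 237 and 247 at 1 µM. Every treated library was above every untreated library, and only the 0.15 and 0.25 µM groups overlapped between neighbouring doses. JUN rose by log2 fold changes of 1.87, 2.13, 2.68 and 2.87 at the 4 doses, and at 1 µM the change had SE 0.14 (edgeR quasi-likelihood, Benjamini-Hochberg adjusted p = 2.42e-12), a 7.31-fold ratio of means. All 4 calls held in all 27 alternatives.

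JUNB encodes a Jun protein often set against JUN in growth control. JUNB (chr19:12791486-12793315, plus strand, a single exon) stood at 98.9, 68.7 and 69.4 CPM in the untreated replicates, 106, 82.6 and 93.2 at 0.15 µM, 183, 116 and 80.3 at 0.25 µM, 348, 215 and 158 at 0.5 µM, and 246, 561 and 224 at 1 µM. The groups at 0.15 and 0.25 µM overlapped the untreated group, those at 0.5 and 1 µM did not, and replicate 2 at 1 µM was the highest of all. JUNB was not called at 0.15 µM (log2 fold change 0.25) or 0.25 µM (0.68), and it rose at 0.5 µM (1.6, SE 0.39, edgeR adjusted p = 0.00233) and 1 µM (2.12, SE 0.4, edgeR adjusted p = 0.000302). Without replicate 2 at 1 µM that change was 1.57 and stayed called. The 0.25 µM value became a call in 6 alternatives, among them library totals (1.17, edgeR adjusted p = 0.00882). Of JUNB's exon bases 14.2% lie under HOOK2 on the opposite strand, and whether counting used the strand is not given in the sources used here, so reads there cannot be told apart.

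JUND, the Jun gene usually expressed at a steady level in resting cells, was the most abundant of the 10 per length. JUND (chr19:18279694-18281622, minus strand, a single exon) stood at 184, 167 and 206 CPM in the untreated replicates, 301, 218 and 347 at 0.15 µM, 255, 223 and 137 at 0.25 µM, 490, 564 and 280 at 0.5 µM, and 452, 461 and 481 at 1 µM. At 0.25 µM replicate 3 was under all untreated libraries, and the group overlapped both the untreated and the 0.15 µM group. Replicate 3 was also the lowest at 0.5 µM. JUND rose at 0.15 µM (0.64, SE 0.24, edgeR adjusted p = 0.0375), 0.5 µM (1.26, edgeR adjusted p = 0.000219) and 1 µM (1.32, SE 0.25, edgeR adjusted p = 0.000136), and was not called at 0.25 µM (0.14, edgeR adjusted p = 0.628). The call at 0.15 µM was lost without untreated replicate 1 (0.63), 2 (0.57) or 3 (0.72), without 0.15 µM replicate 1 (0.61) or 3 (0.48), and with limma voom (0.62). Without replicate 3 of both 0.25 and 0.5 µM, the 0.25 µM change was 0.39 and became a call (edgeR adjusted p = 0.0294), and the 0.5 µM change was 1.54. Without replicate 1 at 0.25 µM the first of these was -0.05. The 0.25 µM change was also called with library totals (0.64, edgeR adjusted p = 0.00639), with TMM factors set on genes over 10 CPM (0.55, edgeR adjusted p = 0.0339) and in both limma fits of FPKM (0.62).

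Among the Fos genes, FOS and FOSL1 moved in opposite directions. FOS, whose product is the prototype of the immediate-early transcription factors, had the largest rise of the 10 at 1 µM. FOS (chr14:75278826-75282230, plus strand) stood at 3.55, 4.59 and 4.14 CPM in the untreated replicates, 27.7, 23.9 and 18.3 at 0.15 µM, 44.2, 51.5 and 37.8 at 0.25 µM, 95.5, 94.9 and 86.8 at 0.5 µM, and 165, 158 and 133 at 1 µM. No group overlapped another, so the libraries order by dose without exception. FOS rose by log2 fold changes of 2.51, 3.44, 4.49 and 5.21, the last with SE 0.2 (edgeR adjusted p = 1.36e-13) and a ratio of means of 37.1. These 4 calls held in all 27 alternatives.

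FOSL1 encodes Fra-1, a Fos protein without the strong transactivation domain of c-Fos. FOSL1 (chr11:65892049-65900573, minus strand) stood at 25.9, 28.3 and 30.7 CPM in the untreated replicates, 18.3, 17.0 and 19.2 at 0.15 µM, 4.77, 4.86 and 4.45 at 0.25 µM, 2.38, 1.17 and 0.815 at 0.5 µM, and 1.74, 1.07 and 1.46 at 1 µM. Every treated library was under every untreated library, and only the groups at 0.5 and 1 µM overlapped each other. FOSL1 fell at 0.15 µM (-0.64, SE 0.24, edgeR adjusted p = 0.0328), 0.25 µM (-2.59), 0.5 µM (-4.32) and 1 µM (-4.31, SE 0.29, edgeR adjusted p = 1.96e-10), where the untreated mean was 19.9 times the treated mean. Of 27 alternatives, 9 took away the 0.15 µM call. These included library totals (-0.28), TMM factors set on genes over 10 CPM (-0.38), and leaving out untreated replicate 2 (-0.64) or 3 (-0.58) or 0.15 µM replicate 1 (-0.64), 2 (-0.59) or 3 (-0.69). The calls at the other 3 doses held in all 27.

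FOSL2, which encodes Fra-2, another Fos protein of the same subgroup, had its highest levels at the 2 lower doses. FOSL2 (chr2:28392448-28417317, plus strand) stood at 4.13, 4.4 and 5.55 CPM in the untreated replicates, 40.0, 37.0 and 36.9 at 0.15 µM, 46.8, 51.5 and 42.7 at 0.25 µM, 9.48, 12.4 and 13.3 at 0.5 µM, and 13.7, 12.2 and 15.3 at 1 µM. All treated libraries were above the untreated ones, and the 2 lower doses were above the 2 higher doses in all 6 libraries each. FOSL2 rose at all doses, by 3.01, 3.32, 1.32 and 1.55 (at 1 µM SE 0.17, edgeR adjusted p = 1.72e-07). From 0.25 to 0.5 µM it fell by 2.0 on the log2 scale (SE 0.16, edgeR adjusted p = 4.36e-08). These calls held in all 27 alternatives.

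FOSB, a Fos gene whose products build up with repeated stimulation in neurons, was low throughout. FOSB (chr19:45467995-45475179, plus strand) stood at 1.63, 2.16 and 1.17 CPM in the untreated replicates, 2.04, 2.89 and 2.2 at 0.15 µM, 1.35, 1.64 and 1.13 at 0.25 µM, 7.72, 6.39 and 2.82 at 0.5 µM, and 7.02, 5.0 and 5.29 at 1 µM. The 0.15 and 0.25 µM groups overlapped the untreated group, and all 6 libraries at the higher doses were above it. FOSB rose at 0.5 µM (1.76, SE 0.34, edgeR adjusted p = 0.00018) and 1 µM (1.8, SE 0.34, edgeR adjusted p = 0.000139). Without replicate 3 at 0.5 µM the first of these was 2.09. At 0.15 µM the value was 0.52 and not called, but it was called with library totals (0.88, edgeR adjusted p = 0.031) and with limma on log2(FPKM + 0.1) (0.64, adjusted p = 0.0495). At 0.25 µM it was -0.28 and not called, and it turned positive with library totals (0.24) and with TMM factors set on genes over 10 CPM (0.14), so no direction is given for it.

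ATF3, a bZIP gene induced by many kinds of cell stress, had group means that increased with each dose, as those of FOS, JUN and JUNB did. ATF3 (chr1:212565334-212620777, plus strand) stood at 5.07, 4.98 and 5.59 CPM in the untreated replicates, 15.5, 15.8 and 10.8 at 0.15 µM, 19.8, 20.8 and 19.7 at 0.25 µM, 36.2, 29.0 and 27.1 at 0.5 µM, and 34.5, 38.7 and 29.7 at 1 µM. Only the groups at 0.5 and 1 µM overlapped. ATF3 rose by 1.43, 1.95, 2.56 and 2.72 (at 1 µM SE 0.18, edgeR adjusted p = 2.07e-10), and these calls held in all 27 alternatives.

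BATF, which pairs with Jun proteins and is best known for its role in T and B cells, was near the detection limit. BATF (chr14:75522455-75546993, plus strand) stood at 0.327, 0.232 and 0.391 CPM in the untreated replicates, 2.14, 1.34 and 1.24 at 0.15 µM, 1.76, 1.07 and 0.525 at 0.25 µM, 0.0882, 0.167 and 0.217 at 0.5 µM, and 0, 0.069 and 0.244 at 1 µM. The level was highest at the 2 lower doses, and at 1 µM a library had no read at all. BATF entered the test only because of those 2 groups, so its calls at 0.15 µM (2.3, SE 0.61, edgeR adjusted p = 0.00409) and 0.25 µM (1.8, SE 0.61, edgeR adjusted p = 0.0161) followed from how it was admitted and carry no weight as support. The second was lost without untreated replicate 2 (1.61) or 0.25 µM replicate 1 (1.31). At 0.5 and 1 µM BATF was not called (-0.93 and -1.56), and without 1 µM replicate 3 the latter was -3.03 and called (edgeR adjusted p = 0.0101).

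MAFF was, beside FOSL1, the only member called lower at all 4 doses. MAFF (chr22:38200767-38216507, plus strand) stood at 4.17, 4.63 and 4.14 CPM in the untreated replicates, 1.93, 2.57 and 2.61 at 0.15 µM, 1.66, 1.64 and 2.0 at 0.25 µM, 3.26, 2.59 and 2.2 at 0.5 µM, and 2.41, 2.86 and 1.39 at 1 µM. Every treated library was under every untreated library, and there was no steady order over the doses. MAFF fell by 0.86, 1.28, 0.69 and 0.96 on the log2 scale at the 4 doses (edgeR adjusted p = 0.0151, 0.000682, 0.0362 and 0.00578). The 0.25 µM call held in all 27 alternatives.

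The other MAFF calls depended on the settings. Library totals (-0.5) were among 5 of 27 alternatives that took away the 0.15 µM call, as was leaving out 0.15 µM replicate 1 (-0.73). The 0.5 µM call was lost in 17, with values from -0.72 to -0.05. Among those were leaving out untreated replicate 1 (-0.72), 2 (-0.64) or 3 (-0.72), 0.15 µM replicate 3 (-0.64), 0.25 µM replicate 3 (-0.64), or 0.5 µM replicate 2 (-0.67) or 3 (-0.56). The 1 µM call was lost with library totals (-0.6) and with TMM factors set on genes over 10 CPM (-0.57). Of MAFF's exon bases 5.8% lie under PLA2G6 on the opposite strand.

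**Figure D2:**
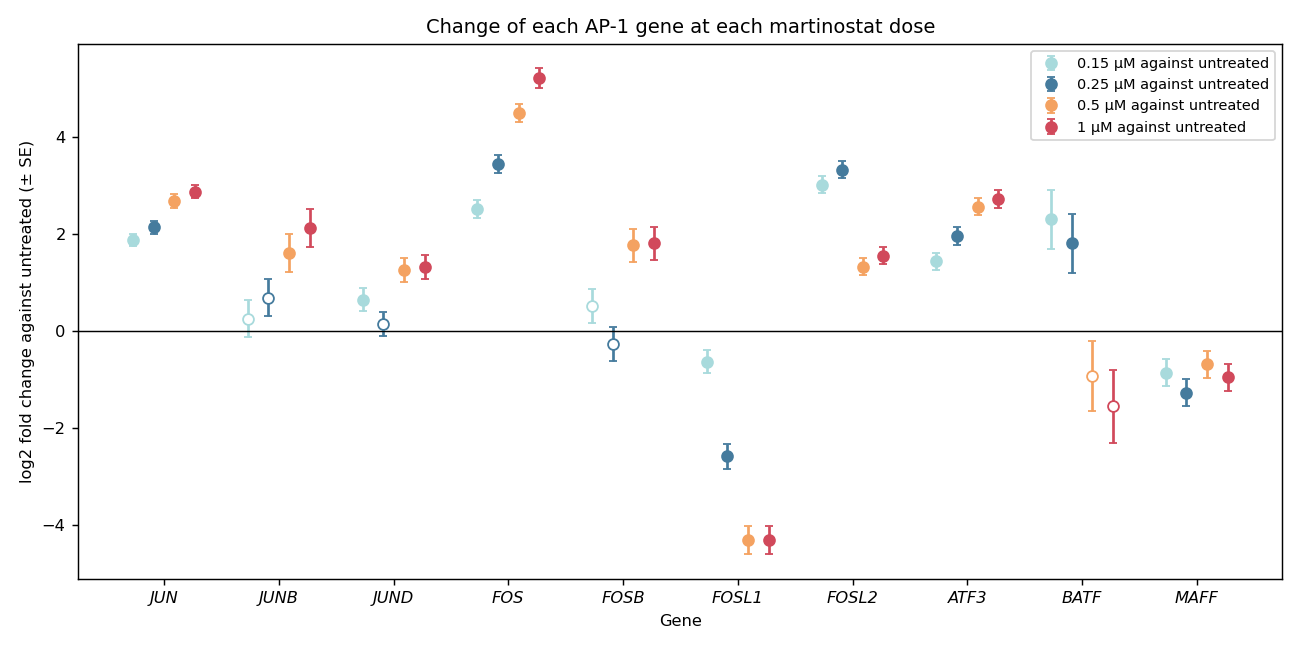
Log2 fold change of each AP-1 gene against untreated cells at each martinostat dose, with SE bars, from the edgeR fit. Filled points were called (adjusted p under 0.05) and open points were not. FOS reaches 5.21 at 1 µM, FOSL1 -4.31, and FOSL2 and BATF have their largest values at the 2 lower doses.

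Counted over the 10 members, 8 were called at 0.15 µM (6 higher, 2 lower), where 51.2% of all tested genes were called, 31.9% higher and 19.4% lower. At 0.25 µM 7 were called (5 higher, 2 lower), against 62.2% of all genes (37.4% higher, 24.8% lower). At 0.5 µM 9 were called (7 higher, 2 lower), against 66.9% (39.4% higher, 27.6% lower), and at 1 µM 9 (7 higher, 2 lower), against 66.2% (38.8% higher, 27.5% lower). The members' median log2 fold change was 1.03, 1.24, 1.46 and 1.68 at the 4 doses, beside 0.28, 0.32, 0.34 and 0.32 over all genes. BATF is among these members, and it passed the filter only through groups where it was high. All 10 members differed among the 5 groups (edgeR quasi-likelihood over the 4 dose terms), as did 73.6% of all tested genes.

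Comparing each dose with the next showed where the members moved. From 0.15 to 0.25 µM 2 members were called, 1 higher and 1 lower, against 12.3% of all genes (4.96% higher, 7.32% lower). FOS rose by 0.93 (SE 0.16, edgeR adjusted p = 0.0012) and FOSL1 fell by 1.95 on the log2 scale (SE 0.25, edgeR adjusted p = 0.000116). ATF3 was just outside the threshold at 0.52 (edgeR adjusted p = 0.0506), and it became a call in 12 alternatives, among them leaving out 0.5 µM replicate 1 (edgeR adjusted p = 0.0475) or 3 (edgeR adjusted p = 0.0308). Without replicate 3 of both 0.25 and 0.5 µM the count was 4, with JUN (0.37) and ATF3 (0.56) added.

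From 0.25 to 0.5 µM 8 members were called, 5 higher and 3 lower, against 30.4% of all genes (14.4% higher, 16.0% lower). FOS (1.05), FOSB (2.03), JUN (0.55), JUND (1.11) and ATF3 (0.61) rose. FOSL1 (-1.73) and FOSL2 (-2.0) fell. The remaining call was BATF (-2.73), which is no support for a fall because BATF was admitted to the test only through the 0.15 and 0.25 µM groups. Replicate 3 was the lowest library in both groups for FOS, FOSB, FOSL1, JUN, JUNB, JUND and ATF3. Without replicate 3 of both doses the changes were 1.15 for JUND and 2.25 for FOSB, still called. The ATF3 call was lost without 0.5 µM replicate 1 (0.48). JUNB was not called (0.92, edgeR adjusted p = 0.0862), but became a call when the replicate numbers were added as a block (0.93, edgeR adjusted p = 0.0308). It was also called without 0.25 µM replicate 1 (1.29) and without 1 µM replicate 2 (0.92), and was not without replicate 3 of both doses (0.93, edgeR adjusted p = 0.194).

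From 0.5 to 1 µM no member was called by edgeR, nor was any of the 23711 genes (0.0%). At an unadjusted p under 0.05 there were 1 member, FOS, and 372 genes. This gene count rested on the replicate 3 libraries that stood apart. Without replicate 3 at 0.5 µM it was 1126 of 24538, and without replicate 3 of both 0.25 and 0.5 µM it was 1640 of 24200. No gene was called in either case. DESeq2 and limma voom also called 0 members and 0 genes, with 547 and 459 genes at an unadjusted p under 0.05. FOS differed by 0.72 (SE 0.16, 1.65-fold, edgeR adjusted p = 1), with all 3 libraries at 1 µM above all 3 at 0.5 µM. For the other 9 the 95% interval of the difference included 0, from JUN's 0.19 ± 0.25 (the narrowest) to BATF's -0.62 ± 1.59 (the widest). Changes within these intervals remain possible. The adjusted test can also miss differences whose interval leaves out 0, as for FOS (0.72 ± 0.31). From 0.15 to 1 µM 9 members were called, 6 higher and 3 lower, against 44.5% of all genes (21.5% higher, 23.1% lower). FOSL1 (-3.67) and FOSL2 (-1.47) fell, and the lower call of BATF (-3.86) again follows from how it was admitted. JUND (0.69) lost its call without 0.15 µM replicate 1 (0.71) or 2 (0.51) or without 1 µM replicate 1 (0.7), 2 (0.69) or 3 (0.66).

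Levels between genes were compared per kilobase of annotated exon. In untreated cells the order of mean levels in CPM per kilobase of exon was JUND (96.3), JUNB (43.2), FOSL1 (15.0), JUN (9.23), ATF3 (1.3), FOS (1.29), MAFF (0.769), FOSL2 (0.655), BATF (0.341) and FOSB (0.298). ATF3 and FOS, MAFF and FOSL2, and BATF and FOSB overlapped over their libraries, and the other neighbours did not. At 1 µM the order was JUND (241), JUNB (188), JUN (67.5), FOS (47.7), ATF3 (8.57), FOSL2 (1.92), FOSB (1.04), FOSL1 (0.754), MAFF (0.396) and BATF (0.112). JUND and JUNB, FOSB and FOSL1, and MAFF and BATF overlapped. FOSL1 went from the third place to the eighth and FOS from the sixth to the fourth.

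The composition of the Fos family turned over. On the level per exon length FOSL1 made up 87.0% ± 0.903 (SD, n = 3) of the 4 Fos genes in untreated cells, 42.6% ± 4.26 at 0.15 µM, 10.8% ± 0.879 at 0.25 µM, 2.34% at 0.5 µM (range 1.44% to 3.72%) and 1.47% ± 0.346 at 1 µM. FOS made up 7.46% ± 0.701, 32.1% ± 4.79, 59.9% ± 1.72, 89.5% ± 1.19 and 92.7% ± 1.22 in the same order. FOSL2 peaked at 28.3% ± 0.919 at 0.25 µM from 3.79% ± 0.341 in untreated cells, and was 3.77% ± 0.784 at 1 µM. FOSB stayed between 1.06% and 3.08% on the group means. In untreated cells FOSL1 led in each of the 3 libraries, and at 0.25, 0.5 and 1 µM FOS led in each. The order at the lower doses depends on the division by length. On counts alone FOSL2 had the largest mean share at 0.15 µM (46.5% ± 1.48, with FOSL1 at 22.3% ± 2.46) and at 0.25 µM (48.3% ± 1.29, with FOS at 45.5% ± 1.56), while FOSL1 still led in untreated cells (73.0% ± 1.15) and FOS at 1 µM (87.8% ± 1.92).

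In the Jun family the shares moved over a smaller range. JUND's share per exon length was 64.8% ± 4.53 in untreated cells and 49.8% ± 9.38 at 1 µM, where its range of 39.1% to 56.7% lay under the untreated range of 60.1% to 69.2%. JUNB's was 28.9% ± 4.83 and 36.2% ± 12.2, with overlapping ranges. JUN's was 6.23% ± 0.46 in untreated cells and 14.0% ± 2.85 at 1 µM, with no overlap. Replicate 2 at 1 µM, the library with the high JUNB level, gave the lowest JUND share and the highest JUNB share (50.2%). Summed per kilobase of exon, the 3 Jun genes stood at 149 ± 13.5 CPM in untreated cells and 496 ± 99.3 at 1 µM, and the 4 Fos genes at 17.2 ± 1.45 and 51.4 ± 5.31. The ratio of the sums was 8.68 ± 1.27 in untreated cells and 9.68 ± 1.88 at 1 µM, with ranges that overlapped. These shares are descriptions and were not tested.

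**Figure D3:**
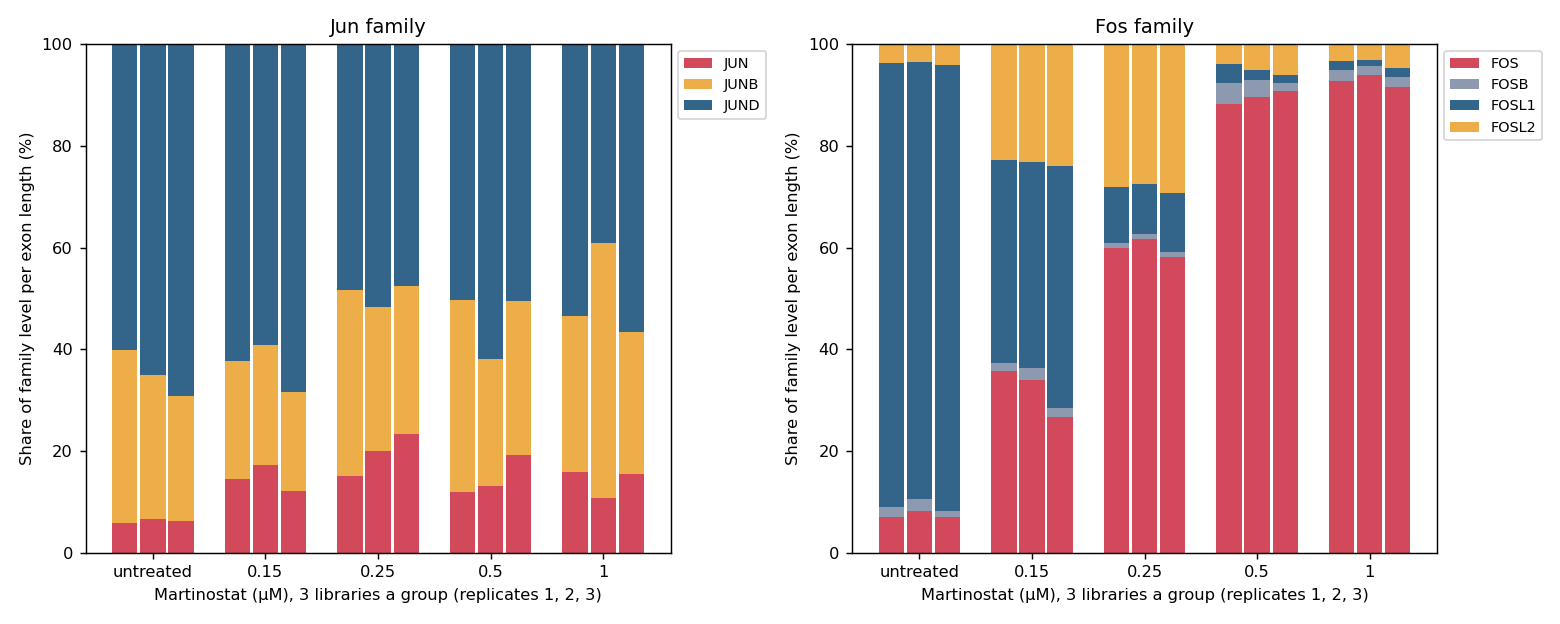
Share of each gene in the summed level per exon length of the Jun family (left) and the Fos family (right), in percent, with a bar for each of the 3 libraries of each dose group. FOSL1 fills 87.0% of the Fos bars on average in untreated cells and FOS 92.7% at 1 µM, while JUND holds between 39.1% and 69.2% of every Jun bar.

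The deposited FPKM values (fragments per kilobase of gene span, scaled by the authors by library total only) gave the same directions for the called members. At 0.15 µM 8 members were above the untreated libraries without overlap and 2 under them, where 48.5% and 15.1% of the tested genes were. At 0.25 µM it was 7 and 2 (52.3% and 16.0% of genes), at 0.5 µM 7 and 2 (47.0% and 21.8%), and at 1 µM 7 and 2 (51.0% and 24.7%). BATF is among those above at 0.15 and 0.25 µM. It passed the filter only through these groups, so it is no support there. FOS, for example, stood at 0.962 ± 0.101 FPKM in untreated cells and 45.7 ± 4.97 at 1 µM (SD, n = 3). In the two-sided exact permutation test 3 libraries against 3 cannot give a p under 0.1, and adjusted over the 40 tests made the smallest value was 0.108, so no FPKM comparison can pass a threshold of 0.05.

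The genes around AP-1 were followed in 4 lists, to be read against the shares of all tested genes called, which from 0.15 to 1 µM were 31.9%, 37.4%, 39.4% and 38.8% higher and 19.4%, 24.8%, 27.6% and 27.5% lower. These shares depended on the genes included. Of the 14096 genes with at least 10 counts in every library, 4858 were called higher and 4866 lower at 1 µM. Some list genes had no untreated library over the filter's minimum of 0.357 CPM, so they entered the test only through treated groups. These were 1 of the 21 bZIP genes, 4 of the 17 immediate-early genes, 3 of the 31 MAP kinase cascade genes and 8 of the 25 target genes, and their higher calls are no support for a list's direction. The 21 bZIP genes that can pair with AP-1 proteins or share their sites were called in both directions: at each of 0.15 and 0.25 µM 9 were called higher and 7 lower, and at each of 0.5 and 1 µM 7 higher and 8 lower, with medians of -0.06, 0.1, -0.27 and -0.25. At 1 µM that was 33.3% higher and 38.1% lower. MAF, a large Maf gene, rose from 1.0 to 5.79 CPM at 1 µM (log2 fold change 2.53). CEBPB, a stress and myeloid regulator, rose from 42.5 to 177 CPM (2.06, edgeR adjusted p = 3.54e-09). NFE2, the erythroid partner of the small Maf proteins, stood at 264 CPM in untreated cells, 436 and 383 at 0.15 and 0.25 µM, and 14.9 and 17.3 at 0.5 and 1 µM, so it rose at the lower doses (0.72 and 0.54) and fell at the higher ones (-4.14 and -3.93). ATF1 fell to 16.7 from 51.0 CPM (-1.61) and the small Maf gene MAFG to 53.4 from 162 CPM (-1.6) at 1 µM.

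The immediate-early genes outside AP-1 respond to the same signals as FOS. Of 19, 17 were tested, with 9 higher and 3 lower at each of 0.15 and 0.25 µM, and 15 higher and 2 lower at each of 0.5 and 1 µM. At 1 µM that was 88.2% higher and 11.8% lower, and 4 of the 15 higher calls were ARC, EGR2, EGR4 and NR4A3, which were admitted only through treated groups. The list's medians were 0.56, 1.51, 1.98 and 2.11, and with EGR4, which had no untreated read, set at its lower bound, the 0.25 µM median was 0.68 and the others did not move. ARC, a neuronal plasticity gene, went from 0.261 ± 0.114 to 80.7 ± 4.38 CPM at 1 µM (SD, n = 3, log2 fold change 8.24). EGR2, a zinc finger factor, went from 0.133 to 5.03 CPM (5.21) and the orphan receptor gene NR4A3 from 0.105 to 2.82 CPM (4.69). The 2 that fell were SRF, which encodes the serum response factor (109 to 43.7 CPM, -1.31), and the matricellular gene CCN1 (3.81 to 1.39 CPM, -1.46).

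The 31 MAP kinase cascade genes carry signals to AP-1. From the lowest to the highest dose 6, 7, 10 and 8 were called higher and 9, 10, 9 and 10 lower, with medians of -0.03, -0.18, 0.05 and -0.03. At 1 µM that was 25.8% higher and 32.3% lower. MAP2K6 and RPS6KA2 were among the genes admitted only through treated groups. MAP2K6, a kinase upstream of p38, had no read in the untreated libraries and 437 reads over the 3 libraries at 1 µM, at least 129-fold higher when set against a floor of 3 counts over the untreated group. RPS6KA2, a ribosomal S6 kinase gene, went from 0.13 to 12.1 CPM (6.48) and MAPK13, the gene of p38 delta, from 1.48 to 9.75 CPM (2.71). MAPK12, the gene of p38 gamma, fell from 56.4 to 15.8 CPM (-1.83), and MAP3K4, a kinase further upstream, from 218 to 87.1 CPM (-1.32).

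Of 30 textbook AP-1 target genes 25 were tested, and over the 4 doses in rising order 15, 17, 13 and 13 were called higher and 1, 3, 5 and 6 lower, with medians of 1.1, 1.45, 0.72 and 0.98. At 1 µM that was 52.0% higher and 24.0% lower, and 6 of the 13 higher calls were genes admitted only through treated groups, MMP2 and MMP9 among them. MMP2, a gelatinase gene, stood at 0.105 CPM in untreated cells, 9.48 and 8.13 at 0.15 and 0.25 µM, and 2.62 and 2.16 at 0.5 and 1 µM. MMP9, the other gelatinase gene, had 2 untreated reads against 412 at 1 µM, a ratio of 182 (exact 95% counting interval 50.1 to 1510). NQO1, a quinone reductase gene, fell from 94.4 to 15.4 CPM (-2.62), the chemokine gene CXCL8 from 2.72 to 0.781 CPM (-1.8), and the connexin gene GJA1 from 3.92 to 1.19 CPM (-1.72). All of the list genes named here kept their direction at 1 µM in every alternative that tested them, and all but MMP2, which lost its call in 1 of 26, kept their call at 1 µM.

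**Figure D4:**
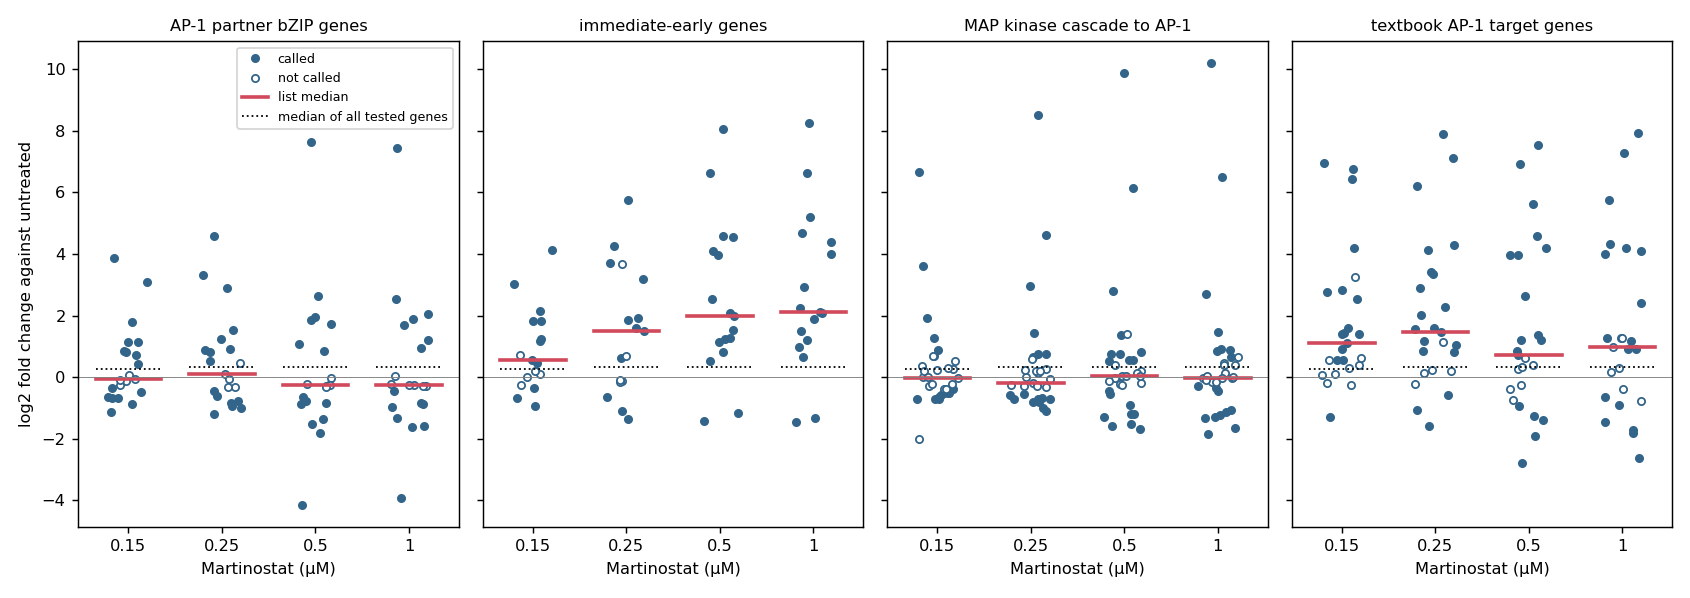
Log2 fold change against untreated cells of the tested genes of 4 lists at each martinostat dose in µM, filled where called, with the list median in red and the median of all tested genes dotted. The immediate-early genes have medians of 1.98 and 2.11 at 0.5 and 1 µM, while the MAP kinase cascade medians stay between -0.18 and 0.05. For genes with no untreated read the fitted value is neither an estimate nor a bound.

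For the 3 members with the widest range of group means, the genes with the most similar pattern were sought among 10123 genes averaging 10 CPM or more. The measure was the root mean square difference of centred log2 CPM over the 15 libraries. For FOS they were SERPINB9 (0.27), a granzyme inhibitor gene that went from 32.6 to 951 CPM, SESN3 (0.32) and ETFBKMT (0.33). For FOSL1 they were AEN (0.27), from 159 to 10.3 CPM, ARHGAP22 (0.32) and CCDC86 (0.33). For FOSL2 they were CRYBG1 (0.22), with 16.9, 137, 193, 49.7 and 49.6 CPM over the 5 groups, FAXDC2 (0.24) and S100A10 (0.28). All 15 points share their libraries and scaling, so this describes likeness only.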

How the data were processed

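The labels and the study's methods describe poly(A) RNA, a directional kit, paired-end sequencing, Trim Galore 0.6.10, HISAT2 2.2.1 on hg38, SAMtools 1.21, featureCounts 1.5.3 and GENCODE release 38. The authors deposited raw counts of 60649 genes and, per sample, FPKM. For the 10 members the deposited FPKM imply a length equal to the whole gene span, introns included, and a scaling by library total. The tests here used edgeR 4.0.16 in R 4.3.3 (filterByExpr, minimum count 10, TMM, robust glmQLFit, glmQLFTest) on the counts, with all 15 libraries and group as the only term, with calls made where the Benjamini-Hochberg adjusted p was under 0.05. Per-length levels and gene positions used GENCODE release 44 on hg38, and promoter sequences came from RefSeq on GRCh38.p14. DESeq2 1.42.0 and limma 3.58.1 were alternatives. In the other limma alternatives the test ran on log2(FPKM + 1) and log2(FPKM + 0.1), and the authors' FPKM carry no depth of their own.

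Members and gene lists were chosen with earlier results of these data known. All members were named. From each list, among genes averaging 1 CPM or more, the 3 that were called and highest in log2 fold change at 1 µM were named, and likewise the 3 lowest, and the likeness search took the 3 nearest genes for 3 members. For the immediate-early genes only 2 were called lower. Of the genes this rule picks, 3 are not reported here. The script, tested on simulated data for 1 µM against untreated with 18115 genes, recovered 96% and 98% of 50 genes each set at log2 changes of -2 and 2, and 70% and 64% at -1 and 1. Of its 173 calls there 9 were false. The simulation changed few genes, and equally many in each direction, whereas 66.2% of all tested genes were called at 1 µM in the data. It therefore cannot show how the scaling behaves when most genes differ. Counting intervals and floors cover counting error only. Same-numbered replicates deviated together only for 0.5 against 0.25 µM (correlations of deviations 0.476, 0.5 and 0.754). There replicates 1 and 2 also went together across numbers (0.402 and 0.204). The replicate 3 libraries of these doses stood apart from the others, so the match by number was plain for replicate 3 only.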

Additional observations from a re-analysis of the deposited data

How the results depend on the processing

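Of 33 member calls against untreated cells 27 held in all alternatives that tested them, and of 52 calls in 7 comparisons 44 did. From 0.15 to 0.25 µM the count of 2 members went to 4 with library totals, TMM factors set on genes over 10 CPM, at least 10 counts in every library, DESeq2, limma on log2(FPKM + 0.1), and without replicate 3 of both 0.25 and 0.5 µM (added after seeing the data), and to 5 with limma on log2(FPKM + 1). Leaving out a library gave 2 to 3 there, and 5 to 8 at 0.15 µM against untreated, the 5 without replicate 1 of 0.15 µM. Not-called values that changed sign were FOSB at 0.25 µM (0.24, 0.14, 0.04 and 0.18 with library totals, 10-CPM TMM factors, limma on log2(FPKM + 1) and log2(FPKM + 0.1)), JUND at 0.25 µM (-0.05 without replicate 1, and -0.05 to 0.39 over all libraries left out in turn), and MAFF from 0.15 to 1 µM (0.01 with RLE factors and with DESeq2, 0.03 with 10-CPM TMM factors and without 0.15 µM replicate 3, 0.0 with at least 10 counts, 0.15 without 1 µM replicate 3, and -0.32 to 0.15 over all libraries left out in turn). The cause was not tested. The replicate block gave 9 members for 0.25 to 0.5 µM, with JUNB added, and 3 for 0.15 to 0.25 µM. In the latter ATF3 became a call (0.53, edgeR adjusted p = 0.0403), although same-numbered replicates did not deviate together between those groups. The block changed no other member's call. BATF had too few reads for the at-least-10-counts filter and could not be tested under it. Limma on log2(FPKM + 1) shrinks low genes by construction, to 0.23 for ATF3 at 0.15 µM. Depth limits BATF most, with 0, 2 and 7 reads at 1 µM.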

Other observations

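The levels of 4 more immediate-early genes outside AP-1, chosen here after their values were seen, are given for each dose or over the doses. DUSP1, a phosphatase that switches off MAP kinases, stood at 25.2 ± 0.636 CPM in untreated cells, 13.0 ± 2.02 and 16.0 ± 3.21 at 0.15 and 0.25 µM, and 99.7 ± 3.39 and 119 ± 20.7 at 0.5 and 1 µM (SD, n = 3). It fell at the lower doses (-0.95 and -0.66) and rose at the higher ones (1.98 and 2.24, at 1 µM edgeR adjusted p = 1.13e-09). ZFP36, which encodes an mRNA decay factor, rose by 0.56, 1.51, 3.97 and 4.0. IER3 rose at every dose, from 8.07 to 168 CPM at 1 µM (4.38). EGR1 went from 162 CPM to 568, 587, 394 and 606 CPM over the 4 doses, all called higher, with the lowest treated level at 0.5 µM.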
